A study of Mus musculus with 16 samples.

Results

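Lipoprotein lipase and 4 genes that govern its action or act beside it (Angptl4, Gpihbp1, Lmf1 and Vldlr) were described in the TA muscle of male C57BL/6JGpt mice. The 5 genes, of 55401 in the count tables, were chosen on measured values of these same mice, so their levels and differences are given as a description and carry no test. The wild-type mice fell into 4 groups of 4 mice. The Juvenile-NCD and Juvenile-HFD groups began their diet at 3 weeks of age, the Adult-NCD and Adult-HFD groups at 8 weeks, and the diets were fed for 4 weeks. NCD was a normal chow diet and HFD a high-fat diet, and each library held the polyadenylated RNA of 1 mouse. The groups were limited to males and to whole muscle, in which every cell type contributes RNA, and although food was freely available, whether the mice were fasted before collection, and its time of day, were not given in the sources used here. Between 13676793 and 18999950 reads were counted per mouse, with a median of 15097271.5 in the Juvenile-NCD, 14576224 in the Juvenile-HFD, 16168111.5 in the Adult-NCD and 14444773.5 in the Adult-HFD group. Levels are given as CPM, the usual depth-scaled read count, computed after TMM scaling of the libraries, and levels of different genes are compared only as CPM per kilobase of exon (CPM per kb).

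Triglyceride reaches muscle in chylomicrons and VLDL and is split by lipoprotein lipase at the luminal face of capillaries, which releases fatty acids for uptake by the fibres. The enzyme is made in the parenchymal cells, matures in the endoplasmic reticulum with the help of lipase maturation factor 1, and is carried across the endothelium and held there by GPIHBP1. ANGPTL4 is a secreted inhibitor of the enzyme whose transcription is known to respond to fatty acids, fasting and hypoxia, and VLDLR binds triglyceride-rich lipoproteins at the cell surface.

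Angptl4 set the diet groups apart at both ages, and the differences of the other 4 genes, between diets or ages, were smaller. Its mean level was 10.6 times as high on HFD as on NCD in juvenile mice, or 8.56 times without Juvenile-HFD replicate 2. In adult mice it was 9.62 times as high, or 6.12 times without Adult-HFD replicate 4. Gpihbp1 was lower and Vldlr higher in adult mice than in juvenile mice on NCD, and Vldlr was also higher in adult mice on HFD. In the juvenile diet comparison the groups did not overlap for 1 of the 5 genes, Angptl4, and 7.15% of the 14230 genes tested had groups without overlap. The adult diet comparison also separated 1 of the 5, again Angptl4, beside 10.1% of 13940 genes. On NCD, adult and juvenile mice did not overlap for 2 of the 5 genes, Gpihbp1 and Vldlr, beside 16.1% of 14243 genes, and on HFD for 1 of the 5, Vldlr, beside 22.5% of 14043 genes. These comparisons share groups of mice, and the genes were chosen with these values known, so nothing was read from the counts.

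Adult-NCD replicate 3 stood apart from the other libraries. Mitochondrial genes held 1.04% of its counts, against 13.1%, 5.79% and 10.7% in Adult-NCD replicates 1, 2 and 4, and the members' log2 fold changes in which it took part are therefore given with and without it. The share of mitochondrial genes also moved with diet, from a mean of 9.50% to 13.1% in juvenile and from 7.66% to 15.3% in adult mice. With these genes removed the Angptl4 log2 fold change between diets was 3.39 in juvenile and 3.28 in adult mice (3.40 and 3.27 with them). In adult mice Lpl, Gpihbp1, Lmf1 and Vldlr then stood at 0.55, 0.49, 0.23 and 0.29, against 0.55, 0.48, 0.22 and 0.28 with them, and edgeR called 145 genes between diets in juvenile and 38 in adult mice, against 140 and 35. Defining markers of the tissue were abundant in every library. The 7 skeletal muscle markers summed to 110262 ± 1044 CPM (SD, n = 4) in juvenile mice on NCD and 99277 ± 7161 CPM on HFD, and to 93502 ± 10277 and 100333 ± 6000 CPM in the Adult-NCD and Adult-HFD groups, with Myh4, a fast myosin heavy chain, giving the most counts over the 16 mice and Acta1, skeletal actin, the highest level per kb. Of the 5 liver markers, Alb, Apoa1 and Apob were at 0 in all 16 mice, and the others, Ttr and Serpina1a, had 4 counts each over the 16 mice.

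Per length of transcript, Lpl was the most abundant of the 5 genes in each group. Its level was 69.2, 82.1, 56.0 and 82.0 CPM per kb in juvenile mice on NCD, juvenile mice on HFD, adult mice on NCD and adult mice on HFD, and averaged over the 16 mice it ranked 514 of 14797 genes. Vldlr ranked 891 with 33.5, 35.4, 45.1 and 54.8 CPM per kb, and Gpihbp1 ranked 1299 with 34.6, 33.8, 19.6 and 27.5 CPM per kb. In juvenile mice Vldlr and Gpihbp1 were neighbours in this order whose levels differed by less than their spread, whereas in adult mice Vldlr stood above Gpihbp1 in each mouse. Angptl4 ranked 7607 with 0.607, 6.41, 0.482 and 4.64 CPM per kb, and Lmf1 ranked 10700 with 1.20, 1.19, 1.083 and 1.26 CPM per kb. The order of these last genes thus differed by diet, with Angptl4 below Lmf1 on NCD and above it on HFD at both ages.

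**Figure D1:**
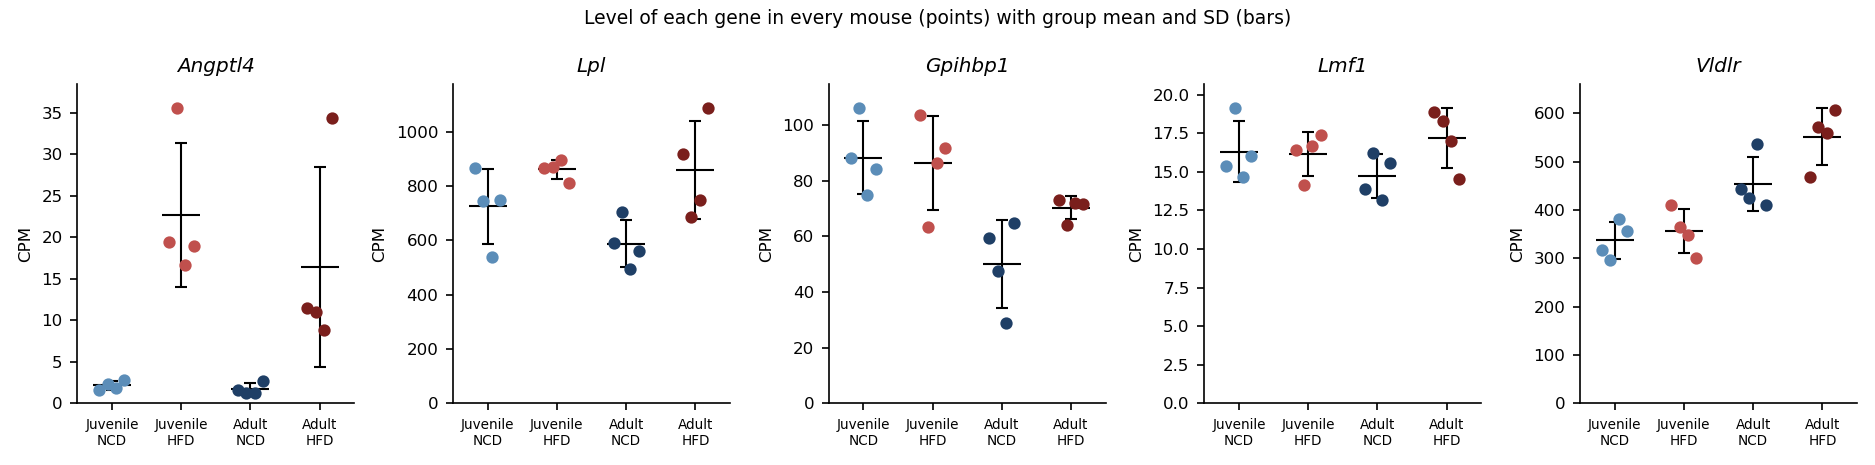
Level in CPM (vertical axes) of Angptl4, Lpl, Gpihbp1, Lmf1 and Vldlr in each of the 4 groups (horizontal axes). Each point is 1 mouse and the bars give the group mean and SD (n = 4). Angptl4 lay between 1.22 and 2.81 CPM on NCD and between 8.85 and 35.6 CPM on HFD.

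Lpl, the lipase itself (ENSMUSG00000015568.16, chr8:68880491-68907448 of GRCm38, plus strand), was readily measured in each mouse. Of its windows of 75 bases, 0.888% also occur in transcripts of other genes, so nearly all of its sequence was its own. Its level in Juvenile-NCD replicates 1 to 4 was 867, 745, 538 and 748 CPM, and in the Juvenile-HFD mice 865, 871, 895 and 812 CPM. The juvenile groups overlapped through Juvenile-NCD replicate 1, and the Juvenile-HFD mice lay closer together than those on NCD, with an SD of 35.1 against 137 CPM. The mean was 725 CPM on NCD and 861 CPM on HFD, a log2 fold change of 0.26 (standard error 0.12). In adult mice Lpl was at 589, 704, 495 and 561 CPM on NCD and at 918, 684, 747 and 1086 CPM on HFD. These groups overlapped through Adult-NCD replicate 2 and Adult-HFD replicate 2 alone, as 3 of the 4 Adult-HFD mice lay above each Adult-NCD mouse and leaving out either of these 2 replicates separated the groups. The means were 587 ± 87.1 and 859 ± 181 CPM (SD, n = 4), with a log2 fold change of 0.55 (standard error 0.16), or 0.47 without Adult-NCD replicate 3. Between ages, Lpl differed by a log2 fold change of -0.31 (standard error 0.15) on NCD, adult against juvenile, or -0.24 without that replicate, and by -0.01 (standard error 0.13) on HFD, and the groups overlapped in both cases, on NCD through Juvenile-NCD replicate 3 alone.

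Lmf1, the chaperone of the endoplasmic reticulum that lipases need for folding (ENSMUSG00000002279.19, chr17:25579085-25662826 of GRCm38, plus strand), was low and even. It stood at 15.4, 19.1, 14.6 and 16.03 CPM in Juvenile-NCD replicates 1 to 4 and at 16.4, 14.2, 16.6 and 17.4 CPM in the Juvenile-HFD mice. In adult mice its level was 13.9, 16.2, 13.2 and 15.6 CPM on NCD and 18.9, 18.3, 17.0 and 14.5 CPM on HFD. Groups overlapped in each of the 4 comparisons, although 3 of the 4 Adult-HFD mice lay above each Adult-NCD mouse, and without Adult-HFD replicate 4 the adult diet groups did not overlap. The log2 fold change was -0.01 (standard error 0.12) between diets in juvenile mice and 0.22 (standard error 0.13) in adult mice, and -0.15 (standard error 0.13) and 0.08 (standard error 0.12) between ages on NCD and HFD. Without Adult-NCD replicate 3 the adult diet value was 0.17 and that for age on NCD -0.10. Its coefficient of variation within groups was 8.65% to 12.1%, against 23.9% to 73.1% for Angptl4. For Angptl4 the values of 38.3% in the Juvenile-HFD and 73.1% in the Adult-HFD group each included 1 mouse far from the rest. These were Juvenile-HFD replicate 2 (35.6 against 16.6 to 19.5 CPM) and Adult-HFD replicate 4 (34.4 against 8.85 to 11.4 CPM).

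The sequence before the start of a gene could be shown for 2 of the 5 genes, Lmf1 and Vldlr, from RefSeq on GRCm38.p6, and not for Angptl4, Lpl and Gpihbp1. The letters AGGTCA (a nuclear receptor half-site, as bound by PPAR with RXR), ACGTG (the core of a hypoxia response element, which also lies within the circadian E-box CACGTG) and GGGCGG (a GC box) were searched on both strands in the 250 bases before each start. Matches of different motifs were counted separately also where they shared bases. Of 32851 such windows, 14.02% held AGGTCA, 16.6% ACGTG and 32.7% GGGCGG. In Lmf1 the 250 bases held 1 match, GGGCGG on the minus strand, 108 bases before the RefSeq start at 25579174. The Gencode start given above, 25579085, lies upstream of the RefSeq start. The match is therefore nearer to the Gencode start, and only the 161 of the 250 bases that precede it are shown. In Vldlr none of these letters are in the window. The bases before the annotated transcripts are shown 5′ to 3′ on the plus strand, which is the strand of both genes, for Lmf1 at chr17:25578924-25579084 with the match in capitals and for Vldlr at chr19:27216234-27216483, which ends at the base before its start.
Lmf1: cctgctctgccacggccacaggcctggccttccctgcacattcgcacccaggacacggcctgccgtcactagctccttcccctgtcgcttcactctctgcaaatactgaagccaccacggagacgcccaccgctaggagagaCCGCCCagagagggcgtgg
Vldlr: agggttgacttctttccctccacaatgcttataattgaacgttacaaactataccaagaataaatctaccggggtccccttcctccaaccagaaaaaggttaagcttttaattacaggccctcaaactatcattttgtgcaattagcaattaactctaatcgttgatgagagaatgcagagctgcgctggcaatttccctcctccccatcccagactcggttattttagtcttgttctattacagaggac

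Gpihbp1, the endothelial protein that carries the lipase to the capillary lumen (ENSMUSG00000022579.10, chr15:75596628-75599481 of GRCm38, plus strand), differed with age on NCD. In Juvenile-NCD replicates 1 to 4 it was at 88.2, 106, 74.8 and 84.2 CPM and in the Adult-NCD mice at 59.4, 47.6, 28.9 and 64.8 CPM. Each Adult-NCD mouse lay below each Juvenile-NCD mouse, and the lowest value belonged to Adult-NCD replicate 3. The means were 88.3 ± 13.1 and 50.2 ± 15.9 CPM (SD, n = 4), a log2 fold change of -0.82 (standard error 0.21), or -0.63 without that replicate. On HFD, Gpihbp1 was at 104, 63.4, 86.4 and 91.7 CPM in juvenile mice and at 73.1, 64.2, 72.0 and 71.8 CPM in adult mice. Here the ages overlapped through Juvenile-HFD replicate 2 alone, and the log2 fold change was -0.31 (standard error 0.13). The diets overlapped at both ages, with a log2 fold change of -0.03 (standard error 0.14) in juvenile mice and 0.48 (standard error 0.21) in adult mice. Without Adult-NCD replicate 3 the adult value was 0.29, and the adult diet groups separated when Adult-NCD replicate 4 or Adult-HFD replicate 2 was left out. In whole muscle a lower level of such a gene can come from fewer endothelial cells or from less of its RNA in each, and these cannot be told apart. The 10 endothelial markers, of which Flt1 gave the most counts, Cdh5 was highest per kb and none was at 0 throughout, summed to 1316 ± 95.8, 1372 ± 100.2, 1260.1 ± 35.0 and 1277 ± 77.9 CPM in juvenile mice on NCD and HFD and adult mice on NCD and HFD. Their part in the level of Gpihbp1 was not tested.

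Angptl4, the secreted inhibitor of the lipase (ENSMUSG00000002289.16, chr17:33773750-33781830 of GRCm38, minus strand), was near the low end of the measured range on NCD. Its exons overlap no other gene and share no window of 75 bases with another transcript. In Juvenile-NCD replicates 1 to 4 it was at 1.63, 2.28, 1.88 and 2.81 CPM, from 23, 36, 28 and 45 counts, and in the Juvenile-HFD mice at 19.5, 35.6, 16.6 and 19.0 CPM, from 270, 568, 238 and 284 counts. No juvenile mice of different diets overlapped, and Juvenile-HFD replicate 2 lay well above the other 3 of its group. The log2 fold change of 3.40 (standard error 0.26) ranked 1 among the 14230 genes tested in juvenile mice. In the Adult-NCD mice Angptl4 was at 1.596, 1.22, 1.30 and 2.72 CPM, from 28, 25, 19 and 41 counts, and in the Adult-HFD mice at 11.4, 11.1, 8.85 and 34.4 CPM, from 149, 156, 123 and 452 counts. The diets again did not overlap, and Adult-HFD replicate 4 stood far above the other 3 mice of its group. The log2 fold change of 3.27 (standard error 0.47) ranked 4 among 13940 genes. Without Adult-HFD replicate 4 it was 2.62, and without Adult-NCD replicate 3 it was 3.18. The ages overlapped on both diets, with a log2 fold change of -0.35 (standard error 0.32) on NCD and -0.48 (standard error 0.38) on HFD, adult against juvenile. Without Adult-HFD replicate 4 the latter was -1.13 and the ages on HFD did not overlap, and the ages on NCD separated without Adult-NCD replicate 4. The value for age on NCD was -0.25 once Adult-NCD replicate 3 had been left out.

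The proportion of inhibitor to enzyme transcripts followed Angptl4 more than Lpl. Per 100 units of Lpl on the CPM per kb scale, Angptl4 stood at 0.901 ± 0.246 (SD, n = 4) in the Juvenile-NCD, 7.80 ± 2.93 in the Juvenile-HFD, 0.881 ± 0.392 in the Adult-NCD and 5.33 ± 2.74 in the Adult-HFD group. It thus remained well below the level of the enzyme in each mouse, with 12.1 as the highest value. Gpihbp1 per 100 units of Lpl was 50.8 ± 8.18 and 41.3 ± 8.58 in the juvenile NCD and HFD groups and 35.1 ± 11.1 and 34.5 ± 5.76 in the adult ones. This ratio overlapped between diets at both ages. Over the 16 mice, which fall into 4 groups, Angptl4 and Lpl correlated with Pearson's r = 0.722 and Spearman's rho = 0.718 in log2 CPM, and with r = 0.356 once group means had been subtracted. Lpl and Gpihbp1 had r = 0.567 (0.341 without Adult-NCD replicate 3, and 0.327 after the subtraction). Lmf1 and Vldlr had r = -0.200 (-0.0705 without Adult-NCD replicate 3), and -0.699 after the subtraction, the value farthest from 0 of the 10 pairs by that measure. Gpihbp1 and Lmf1 had r = 0.570 (0.372 without Adult-NCD replicate 3) and Gpihbp1 and Vldlr r = -0.549, or 0.534 and -0.518 after that subtraction. These are descriptions of mice that share diets, ages and library scaling.

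**Figure D2:**
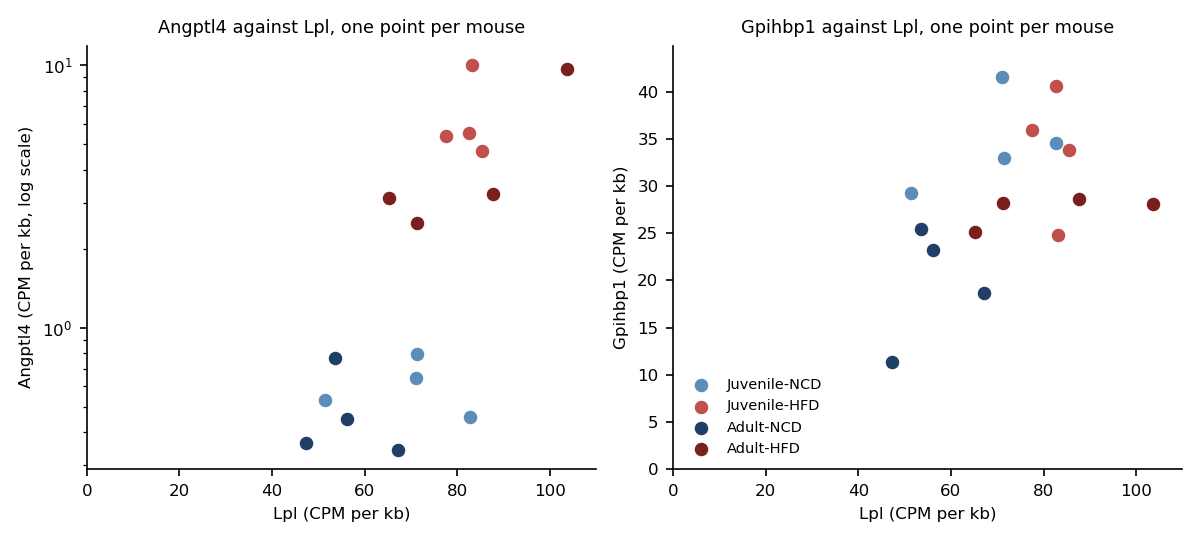
Angptl4 (left, log scale) and Gpihbp1 (right) against Lpl, in CPM per kb, with 1 point per mouse coloured by group. The mice on HFD lie above those on NCD for Angptl4, whereas for Gpihbp1 the diets overlap and Adult-NCD replicate 3 is lowest at 11.3 CPM per kb.

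Vldlr, the receptor for triglyceride-rich lipoproteins (ENSMUSG00000024924.14, chr19:27216484-27254231 of GRCm38, plus strand, the gene whose preceding bases are shown above), differed with age on each diet. It was at 318, 296, 381 and 356 CPM in Juvenile-NCD replicates 1 to 4 and at 444, 426, 536 and 412 CPM in the Adult-NCD mice. Each Adult-NCD mouse lay above each Juvenile-NCD mouse, with a log2 fold change of 0.43 (standard error 0.12), or 0.33 without Adult-NCD replicate 3, which had the highest value of its group. On HFD its level was 411, 366, 348 and 300.02 CPM in juvenile mice and 469, 572, 560 and 608 CPM in adult mice. The ages were separate here too, with a log2 fold change of 0.62 (standard error 0.11). Between diets the groups overlapped, with a log2 fold change of 0.08 (standard error 0.11) in juvenile mice and 0.28 (standard error 0.12) in adult mice. Without Adult-NCD replicate 3 the adult diets did not overlap and the value was 0.37, and they also separated without Adult-HFD replicate 1, the lowest of its group. The summed level of the 5 fibroblast markers also differed with age, in the opposite direction. They summed to 3347 ± 780 CPM (SD, n = 4) in the Juvenile-NCD, 3178 ± 1293 in the Juvenile-HFD, 1222 ± 220 in the Adult-NCD and 422 ± 314 in the Adult-HFD group, with Col1a1 as the most abundant gene and none at 0 throughout. The sum also differed between the adult diets, which did not overlap, while the juvenile diets did. Adult-HFD replicate 2, at 870 CPM, was far above the other mice of its group, at 182 to 407 CPM. The sum rests largely on Col1a1 and Col3a1, and on NCD the levels of Col1a1, Pdgfra and Dcn overlapped between ages. Over the 16 mice Vldlr and this sum correlated with r = -0.791 and rho = -0.844, and with r = 0.108 after group means had been subtracted. The part of the fibroblast genes in the level of Vldlr was not tested.

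**Figure D3:**
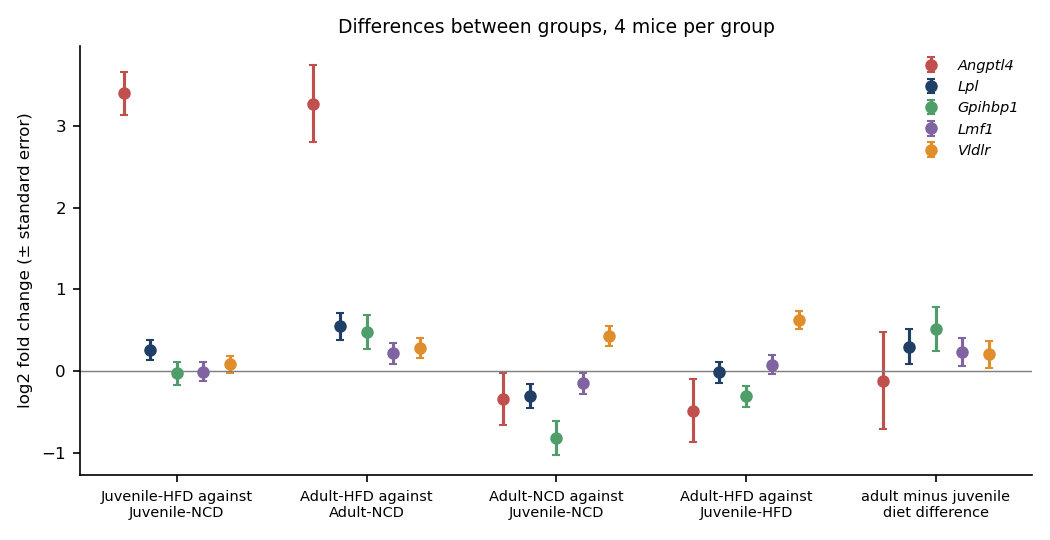
Log2 fold change (vertical axis) of the 5 genes in the 4 comparisons between groups and, on the right, the adult minus the juvenile diet difference. Points are estimates from edgeR and bars give the standard error, with 4 mice per group. Angptl4 lies at 3.40 and 3.27 in the diet comparisons, and the other 4 genes lie between -0.82 and 0.62 throughout.

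Whether the diet differences themselves differed between ages was estimated over the 16 mice as the adult minus the juvenile log2 fold change. It was -0.12 (standard error 0.59) for Angptl4, 0.30 (standard error 0.21) for Lpl, 0.52 (standard error 0.27) for Gpihbp1, 0.23 (standard error 0.17) for Lmf1 and 0.20 (standard error 0.17) for Vldlr. The members carry no test here either, since they were chosen on these values. For Angptl4 the value was -0.77 without Adult-HFD replicate 4. It was -0.21 for Angptl4, 0.23 for Lpl, 0.33 for Gpihbp1, 0.18 for Lmf1 and 0.29 for Vldlr once Adult-NCD replicate 3 had been left out. Over all genes, 2 of 14812 (0.0135%) passed the edgeR quasi-likelihood test of this interaction after Benjamini-Hochberg adjustment. They were Per1 and Jun, named after their values were seen, and the count fell to 0 in 11 of 16 edgeR fits without 1 mouse, against 98 genes by DESeq2 and 1669 at an unadjusted p under 0.05 in edgeR over the 16 mice.

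Of the 28 plasma partners of the lipase outside the 5 genes, 17 were tested in each diet comparison, and the other 11 were too low to test. Among relatives of the members, Angptl8, made chiefly by liver and fat, averaged at most 0.342 CPM in a group. Hepatic lipase, Lipc, averaged at most 0.0741 CPM and endothelial lipase, Lipg, at most 0.158 CPM. In juvenile mice 1 of the 17 rose and 0 fell in edgeR's test, as in DESeq2's, and 3 were higher and 1 lower at an unadjusted p under 0.05 in edgeR. It was Mylip, a ubiquitin ligase that marks lipoprotein receptors, VLDLR among them, for degradation, at 38.3 ± 6.74 CPM on NCD and 59.2 ± 5.63 CPM on HFD (log2 fold change 0.63, standard error 0.12, Benjamini-Hochberg adjusted p = 0.0277 in the edgeR quasi-likelihood test, each of 4 HFD mice above each of 4 NCD mice). With replicate 2 of either juvenile group or Juvenile-HFD replicate 3 or 4 left out, edgeR called 0 of the 17, with 1 to 3 higher and 0 to 2 lower at an unadjusted p under 0.05. In adult mice 0 of the 17 passed edgeR's test, and 0 passed DESeq2's, with 2 higher and 5 lower at an unadjusted p under 0.05, and Mylip had a log2 fold change of 0.41 (Benjamini-Hochberg adjusted p = 0.228 in the edgeR quasi-likelihood test, again 4 of 4 mice above). The median log2 fold change of the list was 0.09 in juvenile and -0.04 in adult mice, against 0.0048 and -0.028 over all genes tested.

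Genes for the uptake of the fatty acids that the lipase releases rose in part at both ages. Of 19 tested, 4 rose and 0 fell in juvenile mice, where 5 and 0 passed DESeq2's test and 5 and 2 an unadjusted p under 0.05, and 3 rose and 0 fell in adult mice, where DESeq2 called 4 and 0 and an unadjusted p under 0.05 was reached by 4 and 1. With 1 mouse left out the juvenile count was 2 to 4 (2 with replicate 3 or 4 of either juvenile group or Juvenile-NCD replicate 2 left out) and the adult count 2 to 4. Fabp3, the cytosolic fatty acid carrier of muscle, rose from 322 ± 50.3 to 720 ± 169 CPM in juvenile mice (log2 fold change 1.17, Benjamini-Hochberg adjusted p = 0.00393 in the edgeR quasi-likelihood test) and from 251 ± 31.5 to 929 ± 178 CPM in adult mice (1.88, adjusted p = 0.000786 in the same edgeR test), with each HFD mouse above each NCD mouse at both ages. Cd36, the fatty acid translocase, rose from 503.6 ± 65.2 to 805 ± 37.8 CPM in juvenile mice and from 456 ± 47.9 to 856 ± 173 CPM in adult mice, with log2 fold changes of 0.68 and 0.91 and groups that did not overlap. Acsl1, which activates fatty acids as CoA esters, rose by a log2 fold change of 0.49 in juvenile and 1.18 in adult mice, and Fabp4, a carrier of adipocytes and capillary endothelium, rose by 0.41 in juvenile mice and stood at -0.20 in adult mice, where its groups overlapped. Of the exon bases, 19.6% of Fabp3 and 9.91% of Acsl1 lie opposite another gene, and reads of these cannot be told apart where strand was not used in counting. The median of the list was 0.11 in juvenile and -0.02 in adult mice. The 8 adipocyte markers, of which Fabp4 held 87.6% of the sum and none was at 0 throughout, summed to 334 ± 25.7, 480 ± 73.8, 363 ± 70.7 and 313 ± 79.5 CPM in juvenile mice on NCD and HFD and in adult mice on NCD and HFD, and their part in these values was not tested. The other 7 adipocyte markers summed to 24.6, 55.5, 24.5 and 37.6 CPM in Juvenile-NCD replicates 1 to 4 and to 70.2, 182, 34.3 and 50.6 CPM in the Juvenile-HFD mice, which overlapped, with the highest value in replicate 2, the Juvenile-HFD mouse with the most Angptl4. In adult mice these 7 summed to 31.8, 63.4, 16.7 and 31.9 CPM on NCD and to 7.52, 86.7, 13.53 and 5.55 CPM on HFD, where replicate 2 was far above the others and replicate 4, with the most Angptl4 of its group, had the lowest value.

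In the same whole muscle, 15 genes of the lipid droplet and its lipolysis were tested. In juvenile mice 4 rose and 0 fell (6 and 0 by DESeq2, 8 and 0 at an unadjusted p under 0.05 in edgeR), and in adult mice 2 rose and 0 fell (6 and 0 by DESeq2, 9 and 1 at an unadjusted p under 0.05). Lipe, the hormone-sensitive lipase, rose from 29.97 ± 1.65 to 55.9 ± 9.51 CPM in juvenile and from 27.8 ± 3.27 to 54.3 ± 6.31 CPM in adult mice, with log2 fold changes of 0.91 and 0.96. Plin5, a coat protein that tethers droplets to mitochondria, rose by 0.94 and 1.81 on the same scale, and for both genes each HFD mouse lay above each NCD mouse. Gpam, the acyltransferase that begins triglyceride synthesis, rose by 0.56 in juvenile mice, and in adult mice, where it did not pass, stood at 0.58. Plin2, another droplet coat protein, rose by 0.46 in juvenile mice and stood at 0.08 in adult mice, where it did not pass. Of the list, 2 were called in juvenile mice with replicate 4 of either group or Juvenile-HFD replicate 3 left out. In adult mice edgeR called 1 with replicate 4 of either group or Adult-NCD replicate 1 left out, and 0 without Adult-NCD replicate 2 or Adult-HFD replicate 1 (8 and 9 higher, 1 and 0 lower at an unadjusted p under 0.05). The medians were 0.35 in juvenile and 0.42 in adult mice. Part of Lipe, 15.6% of its exon bases, lies opposite another gene. The adipocyte sum of each Juvenile-HFD mouse lay above that of each Juvenile-NCD mouse, at 395 CPM or more against 363 CPM or less. Without Fabp4 the adipocyte sums of the juvenile diets overlapped, and their part in these calls was not tested.

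The 25 PPAR receptors and target genes held the most calls of the 7 lists in edgeR with all mice included. Angptl4 is known to belong to this group as a target. As the lists were chosen with results known, nothing was read from this order. In juvenile mice 14 rose and 0 fell (17 and 0 by DESeq2, 19 and 1 at an unadjusted p under 0.05 in edgeR), with a median log2 fold change of 0.59. In adult mice 7 rose and 0 fell (13 and 0 by DESeq2, 18 and 0 at an unadjusted p under 0.05), with a median of 0.62. Among all genes tested, edgeR called 0.513% higher and 0.471% lower in juvenile mice, and 0.201% and 0.0502% in adult mice. With 1 mouse left out the juvenile count of the list lay between 10 and 14. The skeletal muscle sum of juvenile mice was lower on HFD without overlap, at 105697 CPM or less against 109043 CPM or more on NCD. Their adipocyte sum, mostly Fabp4, was higher on HFD without overlap, as given above. The part of these markers in the juvenile calls was not tested. The adult count changed when 1 mouse was left out. Without Adult-NCD replicate 1 or 2 or Adult-HFD replicate 1, edgeR called 0 of these genes. At an unadjusted p under 0.05, 17, 16 and 18 were then higher and 0 lower, against 18 and 0 with all mice. The calls were then fewer than the 2 of fatty acid uptake, which also held 2 beside 2 here without Adult-NCD replicate 4. With Adult-HFD replicate 4 left out edgeR called 3, and with Adult-NCD replicate 3 left out 12. In adult mice the fibroblast markers fell from a mean sum of 1222 CPM on NCD to 422 CPM on HFD, with each HFD mouse below each NCD mouse. The Adult-HFD mean rested much on replicate 2, at 870 CPM, against 229, 407 and 182 CPM in replicates 1, 3 and 4. The macrophage markers fell from 108 to 55.4 CPM, with overlap, and the part of both lists in the adult calls was not tested. Pdk4, the kinase that restrains pyruvate dehydrogenase, rose from 601 ± 263 to 2141 ± 345 CPM in juvenile mice (log2 fold change 1.84, standard error 0.24) and from 177 ± 60.9 to 1422 ± 920 CPM in adult mice (3.00, standard error 0.42). Ech1, an enzyme of the oxidation of unsaturated fatty acids, rose by 0.84 and 0.99. Acot2, a mitochondrial acyl-CoA thioesterase, rose by 1.32 and 3.11. Its cytosolic relative Acot1 rose by 2.23 in juvenile mice, while in adult mice it stood at 3.37 (Benjamini-Hochberg adjusted p = 0.114 in the edgeR quasi-likelihood test), although each of 4 HFD mice lay above each of 4 NCD mice. Acot1 and Acot2 are similar neighbours on chromosome 12, and how their reads were divided is uncertain. Cpt1b, another gene of the list, had 431 counts over the 16 mice and did not pass at either age. It shares 81.4% of its exon bases with another gene on its strand, so its count is uncertain too. Ucp3, an uncoupling protein of muscle mitochondria, rose by 1.69 in adult mice and stood at 0.72 in juvenile mice, where its groups overlapped and it did not pass.

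**Figure D4:**
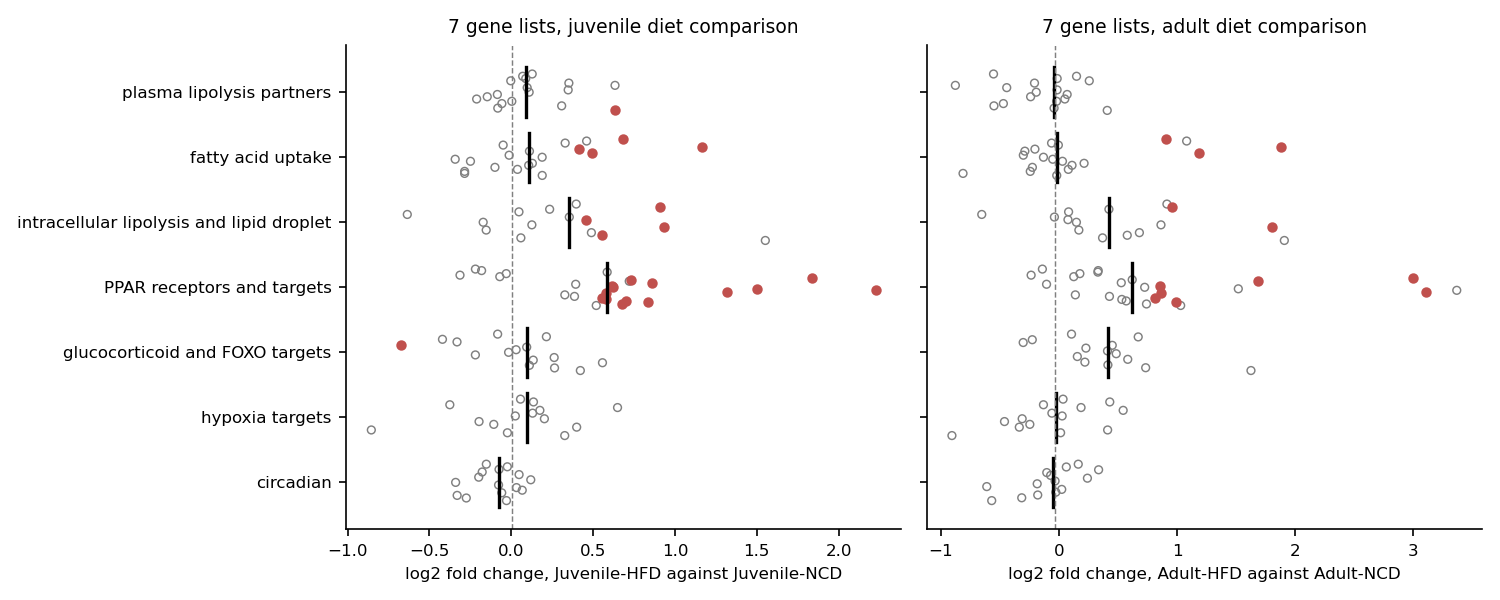
Log2 fold change (horizontal axes) of the genes of 7 lists in juvenile mice (left) and adult mice (right), HFD against NCD. Each circle is 1 gene, filled where its adjusted p was under 0.05, black bars mark list medians and the dashed line the median of all genes tested. The PPAR receptors and targets hold 14 filled circles on the left and 7 on the right, each of them above 0.

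Targets of glucocorticoids and FOXO factors, hypoxia targets and circadian genes were described in the same way. The first list also held the regulators Nr3c1, Foxo1 and Foxo3, and the hypoxia list Hif1a and Epas1, so neither is of targets alone. Of the 15 genes of the glucocorticoid and FOXO list tested in juvenile mice, 0 rose and 1 fell. DESeq2 called 0 and 2, and 2 and 3 reached an unadjusted p under 0.05 in edgeR. The gene was Per1, a clock gene that glucocorticoids induce, at 198 ± 36.2 CPM on NCD and 124 ± 15.98 CPM on HFD (log2 fold change -0.67, Benjamini-Hochberg adjusted p = 0.0250 in the edgeR quasi-likelihood test, each of 4 HFD mice below each of 4 NCD mice). With replicate 2 or 4 of either juvenile group or Juvenile-HFD replicate 3 left out, edgeR called 0 of this list in juvenile mice, with 2 to 3 lower and 1 to 4 higher at an unadjusted p under 0.05, and without Juvenile-HFD replicate 1 it called 2, both lower. Of the 14 tested in adult mice, 0 passed in edgeR (3 higher and 0 lower by DESeq2, 9 higher and 0 lower at an unadjusted p under 0.05), with 1 called without Adult-HFD replicate 4 and a median of 0.41 against 0.09 in juvenile mice. Of the 14 genes of the hypoxia list, 0 passed in edgeR at either age. At an unadjusted p under 0.05 in edgeR, 2 were higher and 2 lower in juvenile mice, and 2 and 3 in adult mice. DESeq2 called 0 higher and 1 lower in juvenile mice and 1 and 0 in adult mice. Without Juvenile-HFD replicate 1 edgeR called 1 of them, which was lower. The medians were 0.09 and -0.02, and the most abundant genes of the list, Epas1 (the HIF-2 alpha subunit) and Egln1 (an oxygen-sensing prolyl hydroxylase), had log2 fold changes of 0.14 and 0.13 in juvenile and 0.43 and -0.06 in adult mice. Of the circadian genes, a list that did not include Per1, 15 tested in juvenile and 14 in adult mice, 0 passed in edgeR and 0 in DESeq2, with 0 higher and 3 lower at an unadjusted p under 0.05 in juvenile mice and 1 and 2 in adult mice, and 1 lower was called in edgeR without Juvenile-NCD replicate 3. Their medians were -0.07 and -0.05, and Tef and Dbp, output factors of the clock and the most abundant genes of the list, stood at 0.07 and 0.03 in juvenile and 0.03 and -0.61 in adult mice.

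Over the 131 genes of the 7 lists together, 23 rose and 1 fell of 120 tested in juvenile mice and 12 rose and 0 fell of 118 in adult mice (27 called by DESeq2, and 45 higher and 12 lower at an unadjusted p under 0.05). The juvenile calls numbered 15 to 26 with 1 mouse left out, with 15 once Juvenile-NCD replicate 2 was omitted and also once Juvenile-HFD replicate 3 was. The adult calls numbered 2 without Adult-NCD replicate 2 or Adult-HFD replicate 1, 3, 19 and 5 without Adult-NCD replicates 1, 3 and 4, 7 without Adult-HFD replicate 4, and 4 with a block for the replicate number. Among all genes, 0.513% rose and 0.471% fell in juvenile mice, and 0.201% and 0.0502% in adult mice. Between ages, 5 of 119 list genes tested were higher and 20 lower in adult than in juvenile mice on NCD, beside 1.85% and 4% of all genes, and 15 and 16 of 118 on HFD, beside 7.73% and 10.4%. Several named calls were lost in fits that left out 1 mouse. In juvenile mice the calls of Fabp3, Cd36, Lipe, Gpam, Ech1, Pdk4, Acot1 and Acot2 were kept with any 1 of the 8 mice left out. The calls of Fabp4 and Plin2 were each lost in 7 of these 8 fits, those of Acsl1 and Per1 in 5, that of Mylip in 4 and that of Plin5 in 3. With the 16 mice in a joint edgeR fit, those of Acot1 and Acot2 were lost as well as those of Fabp4, Acsl1, Plin5 and Plin2, with Benjamini-Hochberg adjusted p between 0.0881 and 0.374. Adjusted p for the lost genes was 0.0873 for Plin2 without Juvenile-NCD replicate 1 and 0.0589 for Fabp4 without Juvenile-HFD replicate 1, and lay between 0.0913 and 0.125 without Juvenile-NCD replicate 2, 0.0619 and 0.0790 without Juvenile-NCD replicate 3, 0.0692 and 0.128 without Juvenile-NCD replicate 4, 0.0542 and 0.101 without Juvenile-HFD replicate 2, 0.0565 and 0.115 without Juvenile-HFD replicate 3, and 0.0557 and 0.0996 without Juvenile-HFD replicate 4, with edgeR and Benjamini-Hochberg adjustment as before. In adult mice the calls of Fabp3 and Acsl1 were kept with any 1 mouse left out, and those of Cd36 (lost in 6 of 8 fits), Plin5 and Ech1 (5), Acot2 (4), Ucp3 and Pdk4 (3) and Lipe (2) were not. The adjusted p of those lost was 0.0514 without Adult-HFD replicate 3 (Cd36), and lay between 0.0615 and 0.113 without Adult-NCD replicate 1, 0.0722 and 0.162 without Adult-NCD replicate 2, 0.0529 and 0.123 without Adult-NCD replicate 4, 0.0559 and 0.172 without Adult-HFD replicate 1, and 0.0501 and 0.110 without Adult-HFD replicate 4, with the same edgeR test and adjustment.

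The genes whose pattern was most like that of each member were named by Pearson's r of log2 CPM over the 16 mice, among 14812 genes. Those nearest to Angptl4 were Lipe (r = 0.976), Cd36 (0.905), Pdk4 (0.888), Trim25 (0.880) and Cat (0.872). Lpl was most like Bclaf1 (0.889), Pln (0.874), Cd36 (0.867), Slc25a22 (0.864) and Atxn1 (0.854), so that Cd36 stood in both sets. Around Gpihbp1 lay Pom121 (0.944), Ldb3 (0.936), Ly6c1 (0.935), Picalm (0.931) and Eng (0.919), of which Ldb3 is known from the Z-disc of muscle and Ly6c1 and Eng from endothelial cells. Without Adult-NCD replicate 3 these 5 values came to 0.883, 0.848, 0.845, 0.837 and 0.810. Lmf1 had weaker neighbours, among them Chrnb1 (0.792), Eme2 (0.789), Alkbh6 (0.774) and Gys1 (0.767). The closest to Vldlr were Uggt1 (0.948), Mycbp2 (0.945), Pcyt1a (0.938), Eif4b (0.930) and Sptb (0.929). These values are the highest of many and carry no test. After group means had been subtracted, r of the same genes lay between 0.384 and 0.796 for Angptl4, 0.758 and 0.874 for Lpl, 0.800 and 0.903 for Gpihbp1, 0.687 and 0.745 for Lmf1 and 0.616 and 0.805 for Vldlr. By that measure 1 of the 5 genes remained among the 5 nearest for Lpl (Cd36) and 0 for each of the others.

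Summed marker levels of other cell types were set beside the members in the same way. Gpihbp1 correlated with the 7 skeletal muscle markers at r = 0.826 (rho = 0.715), 0.862 after subtraction of group means and 0.623 without Adult-NCD replicate 3, and with the 10 endothelial markers at r = 0.466 (rho = 0.621), 0.283 after that subtraction and 0.620 without the same replicate. Lpl correlated with the fibroblast sum at r = -0.256 and with the macrophage sum at r = -0.329, and more closely after subtraction, at -0.700 and -0.693. Angptl4 correlated with the adipocyte sum, of which Fabp4 held 87.6%, at r = 0.342, or 0.275 after that subtraction. With the endothelial sum Angptl4 had r = 0.231, or -0.173 after that subtraction. The 6 macrophage markers, led by Lyz2, summed to 153 ± 64.6 and 176 ± 47.7 CPM in the Juvenile-NCD and Juvenile-HFD groups and to 108 ± 53.3 and 55.4 ± 28.5 CPM in the adult ones, and Vldlr correlated with them at r = -0.625, and at 0.123 after subtraction of group means. The 5 slow fibre markers, led by Tnnt1, summed to 19.1 ± 4.06 and 26.8 ± 19.5 CPM in juvenile and 18.1 ± 7.53 and 13.9 ± 3.602 CPM in adult mice on NCD and HFD. Their sum had r = 0.126 (rho = -0.0294) with Angptl4, 0.282 after subtraction and 0.218 without Adult-NCD replicate 3. With Gpihbp1 it had r = -0.240, -0.714 after subtraction and -0.0964 without the same replicate. None of these marker genes was at 0 in all mice. The mice share groups and library scaling in these correlations, and the part of the marker genes in the members' levels was not tested.

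**Figure D5:**
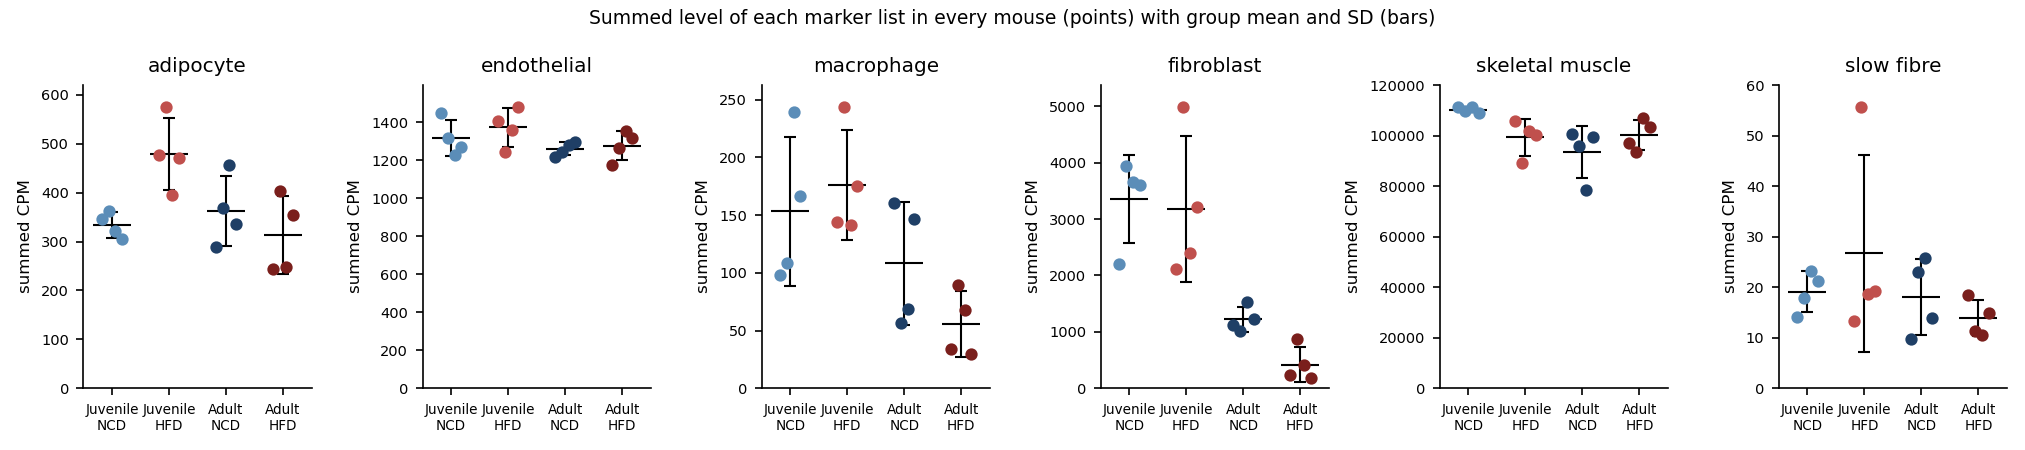
Summed CPM (vertical axes) of 6 marker lists in the 4 groups (horizontal axes). Each point is 1 mouse and the bars give the group mean and SD (n = 4). The fibroblast sum is lower in adult than in juvenile mice, and the slow fibre sum of Juvenile-HFD replicate 2, 55.7 CPM, lies above the others.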

How the data were processed

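Polyadenylated RNA of the TA muscle of 16 mice, 4 per group by the labels, was sequenced by the authors. Per their methods and notes, reads were checked with FastQC 0.12.1, trimmed with cutadapt, aligned with STAR 2.7.11a and counted per gene with featureCounts 2.0.3, and DESeq2 1.42.0 was used. The deposited values are these counts, without normalization; the use of strand and the treatment of reads with several matches are not given in the sources used here. Of 55401 genes, 55141 were named and placed by Gencode M21 (GRCm38). Here edgeR 4.0.16 with limma 3.58.1 in R 4.3.3 kept genes with filterByExpr (minimum count 10) and scaled libraries with TMM. Pairs of groups were compared within their 8 mice, and the diet by age interaction over 16, with the 2-sided quasi-likelihood test and Benjamini-Hochberg adjusted p (threshold 0.05). The procedure was tested on simulated data, and the outcome is not given here. Depth was 13676793 to 18999950 counts per mouse.

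The members and gene lists were chosen with earlier results of these data known. Genes named are the 5 members, up to 4 list genes with the smallest p among those past the threshold in a diet comparison (or the 2 most abundant per kb where none passed), relatives of the members, the marker with the most counts in each list, and the 5 genes most like each member, apart from a few that are not reported here. Some genes were also named for exon overlap with another gene or as regulators within a list. Log2 CPM had a prior count of 2. Alternatives were DESeq2 1.42.0, its size factors in edgeR, no filter on low counts, a joint fit of the 16 mice, a block for the replicate number, removal of mitochondrial genes, CPM without TMM, other measures of likeness and each mouse left out in turn.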

Additional observations from a re-analysis of the deposited data

Results flagged for a closer look

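In 4 of 48 groups of 4 mice looked at (CPM of the 5 members, sums of 6 marker lists without the liver list, which was near 0, and mitochondrial share), 1 mouse lay far from the other 3, as judged by its gap relative to the range of its group. Chance flags about 1 in 20 groups. Angptl4 was at 35.6 CPM in Juvenile-HFD replicate 2, against 16.6 to 19.5 CPM in the other 3, and at 34.4 CPM in Adult-HFD replicate 4, against 8.85 to 11.4 CPM. Gpihbp1 was at 64.2 CPM in Adult-HFD replicate 2, against 71.8 to 73.1 CPM. The slow fibre markers summed to 55.7 CPM in Juvenile-HFD replicate 2, against 13.4 to 19.3 CPM.

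The diet difference differed between ages for Per1 and Jun by edgeR's quasi-likelihood test of the interaction with Benjamini-Hochberg adjustment. For Per1 the adult minus juvenile log2 fold change was 1.14 (adjusted p = 0.0440). Its level was 198 ± 36.2 and 124 ± 15.98 CPM (SD, n = 4) in juvenile mice and 93.2 ± 7.42 and 128 ± 5.01 CPM in adult mice on NCD and HFD, and each of 4 HFD mice lay below each NCD mouse in the juvenile and above in the adult groups. For Jun the difference was 1.80 (adjusted p = 0.0451), with 495 ± 187 and 176 ± 14.3 CPM in juvenile mice and 141 ± 23.98 and 176 ± 30.5 CPM in adult mice, where the diets overlapped. Both calls were close to the threshold, and the interaction gave 0 calls with the replicate number as a block and in 11 of 16 fits without 1 mouse (edgeR, with 1669 genes at an unadjusted p under 0.05 over the 16 mice and 98 called by DESeq2).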

How the results depend on the processing

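With 4 mice per group, counts of genes past the threshold moved far more than the members' values. Among the members, omitting Adult-HFD replicate 4 put Angptl4 at 2.62 for diet in adult mice, -1.13 for age on HFD and -0.77 for the interaction, which reached 0.19 at most with a mouse left out, and the mean of Gpihbp1 in Adult-HFD mice was 66.1 CPM without TMM. In juvenile mice the diet comparison called 140 genes (73 higher, 67 lower), 374 by DESeq2, 773 with every gene that had at least 1 count, and 63 to 192 with a mouse left out (64 without Juvenile-NCD replicate 2, 88 without Juvenile-NCD replicate 4, 63 and 92 without Juvenile-HFD replicates 3 and 4). In adult mice it called 35 (28 higher, 7 lower), 292 by DESeq2 (177 and 115), 274 with every gene (141 and 133), 233 with 16 mice in the fit (145 and 88), and 8 to 59 with a mouse left out (16, 8, 59 and 18 without Adult-NCD replicates 1 to 4, and 8, 59 and 19 without Adult-HFD replicates 1, 2 and 4). Age on NCD gave 833 (263 higher, 570 lower), 1587 by DESeq2, 1324 with 16 mice (589 and 735), and 297 to 1150 with a mouse left out (555, 297, 548 and 367 without Juvenile-NCD replicates 1 to 4, 368 without Adult-NCD replicate 2). Age on HFD gave 2540, and 1486 (without Juvenile-HFD replicate 2) to 2728. The interaction gave 2 (1669 at an unadjusted p under 0.05), 98 by DESeq2, 281 with every gene and 0 to 83 with a mouse left out in edgeR (0 in 11 of 16 such fits, 11 without Juvenile-NCD replicate 3, 10 without Juvenile-HFD replicate 1, 83 without Adult-HFD replicate 2). Genes of the 7 lists called in juvenile mice came to 24, to 44 with every gene, 15 with 16 mice, and 15 to 26 with a mouse left out (15 without Juvenile-HFD replicate 3 and the same without Juvenile-NCD replicate 2). In adult mice they came to 12, to 27 by DESeq2, 26 with every gene, 25 with 16 mice, and 2 to 19 with a mouse left out (3, 2, 19 and 5 without Adult-NCD replicates 1 to 4, 2 and 7 without Adult-HFD replicates 1 and 4). With a replicate block the adult diet called 15 genes, 4 of them in the lists, the interaction 0, and the calls of Acsl1 at both ages and of Cd36, Plin5, Ech1 and Acot2 in adult mice were lost (adjusted p = 0.0595 in juvenile mice and 0.0534 to 0.1502 in adult mice with the block in edgeR). Apart from that block, mice with the same number were treated as unpaired, and the labels do not say what the number stands for. Deviations of same-numbered mice correlated between -0.12 and 0.31. Those that correlated best with their own number were replicate 1 for the juvenile diet, replicates 1, 2 and 3 for age on NCD and replicates 1 and 2 for age on HFD. The cause of the shifts in these counts was not tested. Angptl4 rested on 19 to 45 counts per mouse on NCD, which limits its precision there.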
